A study of Rattus norvegicus with 14 samples.

Results

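The 8 genes described here serve the presentation of peptides on MHC class II molecules, which in the rat are encoded in the RT1 complex. They were taken by symbol: every probe set whose single gene symbol in the platform annotation was Cd74, RT1-Da, RT1-Ba, RT1-Bb, RT1-Db1, RT1-DMa, RT1-DMb or Ciita. This gave 14 of the 31042 probe sets and 8 of the 14217 named genes. Where a gene had several, the brightest over the 14 arrays by mean stands for it below. The tissue was thoracic aorta of Sprague-Dawley rats, an outbred stock, and its total RNA was hybridised to Affymetrix arrays after oligo-dT primed labelling. In the A-CRF group (8 arrays) chronic renal failure had been induced with adenine, and the Control group (6 arrays) is labelled only as control. The labels give no age, sex, dose or duration, no genetic modification, and do not say whether the samples came from different animals. The p-values therefore rest on the spread of these samples alone, and part of that spread may be technical. On 3 arrays, A-CRF 1, A-CRF 4 and Control 1, the GAPDH 3′ probe set exceeded the 5′ one by 1.58 to 1.90 log2 units, against 0.37 to 0.55 on the others, a difference that can reflect transcript integrity. Smooth muscle markers defined the tissue, with a mean log2 signal of 9.93 to 10.38 over 6 genes in A-CRF and 10.16 to 10.82 in Control.

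Class II molecules present peptides from endosomes to CD4+ T cells. They are pairs of an alpha and a beta chain, RT1-Ba with RT1-Bb and RT1-Da with a D beta chain such as RT1-Db1. The invariant chain Cd74 assembles with the pair and blocks its groove. RT1-DMa and RT1-DMb form the DM dimer that releases the remaining invariant chain peptide so that other peptides can bind. Ciita is the coactivator of the class II promoters and does not bind DNA itself. It is recruited by factors on conserved promoter elements, among them the X box, bound by the RFX complex, and the Y box, bound by NF-Y. In a vessel wall class II is carried mainly by macrophages, dendritic cells and B cells, and interferon gamma can induce it in other cells. Several of the B and D chains are among the most polymorphic proteins of the rat.

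The promoter stretches that hold these elements show what most of the class II genes measured here have in common. Promoter sequences (RefSeq, build GRCr8, 250 bases before to 50 after the start of the gene) were in the table for 6 of the 8 genes. The search used a core of the X box, ACNGATG, and a core of the Y box, TGATTGG, on both strands. Both cores were chosen after these promoters had been read. Each line below gives a window around the Y core, 5′ to 3′ on the strand of the gene, with the cores in capitals.
RT1-Da: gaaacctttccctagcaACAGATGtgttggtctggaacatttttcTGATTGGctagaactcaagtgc
RT1-Db1: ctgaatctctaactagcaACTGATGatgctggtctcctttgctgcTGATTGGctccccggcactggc
RT1-Bb: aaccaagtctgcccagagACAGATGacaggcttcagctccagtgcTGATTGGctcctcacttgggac
RT1-DMa: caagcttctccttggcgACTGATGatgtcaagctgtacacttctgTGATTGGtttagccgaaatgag
RT1-Ba: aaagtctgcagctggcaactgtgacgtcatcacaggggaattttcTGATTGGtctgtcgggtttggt

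These windows lie at chr20:4515319-4515385 on the plus strand (RT1-Da), chr20:4560223-4560289 on the minus strand (RT1-Db1), chr20:4604160-4604226 on the minus strand (RT1-Bb), chr20:4712380-4712446 on the minus strand (RT1-DMa) and chr20:4576967-4577033 on the plus strand (RT1-Ba). The X core was present in 4 of the 6 promoters and in 9.96% of all 27457 promoters of the table. The Y core was present in 5 of the 6 and in 7.31% of all. An X core followed on the same strand by a Y core, without overlap and at most 30 bases apart, occurred in 8 promoters of the 27457 (0.0291%). Of these 8, 4 belonged to genes described here, with a gap of 20 bases in RT1-Db1 and RT1-Bb and of 21 bases in RT1-Da and RT1-DMa. The others were the class II genes RT1-Db2 and RT1-DOb, Hsd17b7, a gene of steroid and sterol synthesis, and Tdo2, a tryptophan dioxygenase. RT1-Ba held the Y core without this X core, and the promoter of Cd74, on chromosome 18, held neither. A match of letters is a description of the window and not a binding site. A missing match does not show that the element is absent, since a variant of it would not be found.

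Setting A-CRF against Control asks whether class II transcripts of the aorta differ in renal failure. None of the 8 genes passed the threshold, an adjusted p of 0.05 in limma with Benjamini-Hochberg adjustment over all 31042 probe sets. Among all probe sets 2.05% passed, 1.26% higher and 0.789% lower in A-CRF. At an unadjusted p under 0.05 there were 2 of the 8 genes, RT1-DMa and RT1-DMb, both higher, against 14.4% of all probe sets (7.19% higher). The exact rank-sum test adjusted in the same way called 0 of the 8 and 429 of all probe sets. As many probe sets, 429, had no overlap between the groups, and with these arrays only those could pass. Since each of the 8 genes overlapped, this 0 adds nothing to the overlap given below. The exact permutation test called 0 of all 31042 probe sets, its smallest possible unadjusted p being 0.00033. The 0 of the 8 in the permutation test therefore says nothing of these genes. Limma and both exact tests each had 2 of the 8 at an unadjusted p under 0.05. Without the 3 arrays of large GAPDH difference 0 of the 8 passed as well, with changes of 0.22 log2 units for Cd74 and 0.28 for RT1-Da. In limma 7 of the 8 changes were above 0 and 1 was below. The median change was 0.22 log2 units, against -0.0020 over all probe sets. The values of the groups overlapped for each of the 8 genes, whereas they did not overlap for 1.38% of all probe sets. In such bulk tissue, fewer cells of a type and less RNA per cell cannot be told apart.

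**Figure D1:**
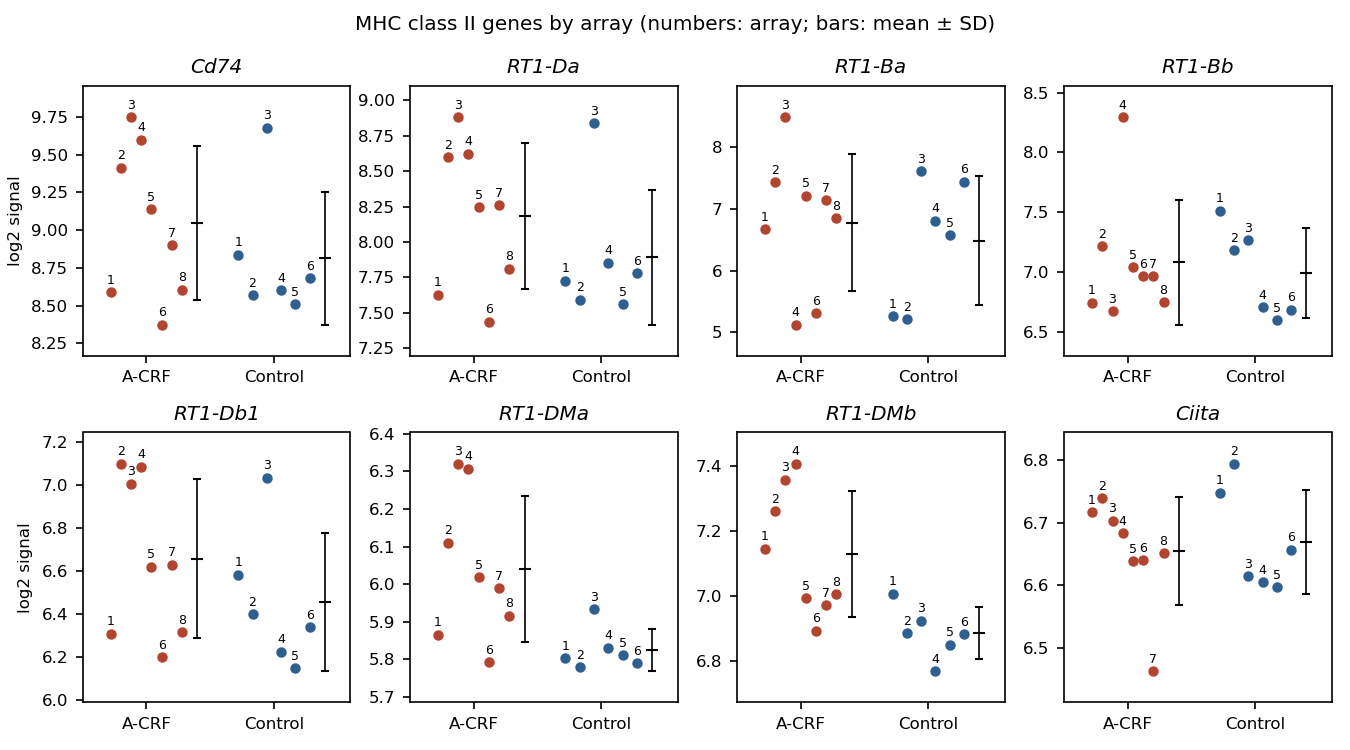
Log2 signal of the probe set that represents each gene, by array (numbers within each group), with A-CRF in red and Control in blue and bars for the mean ± SD (n = 8 and n = 6). Every panel has its own scale. Control 3 stands with the highest A-CRF arrays for Cd74, RT1-Da and RT1-Db1, and the groups overlap in each panel.

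Cd74, the invariant chain, ranged over 8.37, 9.02 and 9.75 log2 units (lowest, median, highest) in A-CRF and 8.51, 8.64 and 9.68 in Control. A-CRF 2, 3, 4 and 5 were at 9.14 or above and A-CRF 1, 6, 7 and 8 at 8.90 or below, so the A-CRF arrays covered both ends of the scale. In Control, 5 arrays lay between 8.51 and 8.84 and Control 3 alone at 9.68. Cd74 averaged 9.05 ± 0.51 in A-CRF and 8.81 ± 0.44 in Control (SD over 8 and 6 arrays). Their difference of 0.23 ± 0.24 log2 units (SE, limma, adjusted p = 0.776) had a 95% interval of -0.28 to 0.75, which corresponds to 0.821-fold to 1.68-fold. The interval therefore covers both no change and a rise of more than 1.5-fold.

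RT1-Da, the alpha chain of the D molecule, had log2 values of 7.44, 8.25 and 8.88 (lowest, median, highest) in A-CRF and 7.56, 7.75 and 8.84 in Control. The highest Control value was again Control 3, and only A-CRF 3 exceeded it. The difference was 0.29 ± 0.25 log2 units (SE, limma, adjusted p = 0.702, 95% interval -0.24 to 0.83). The beta chain RT1-Db1 was at 6.20, 6.62 and 7.10 in A-CRF and 6.15, 6.37 and 7.03 in Control, with a difference of 0.20 ± 0.17 (adjusted p = 0.707). Its representing probe set, 1370383_s_at, is of a type that can match several transcripts. The other, 1370382_at, had a difference of 0.09 ± 0.11 (adjusted p = 0.829). The chains of the D molecule thus did not differ between the groups beyond the spread of the arrays.

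The peptide exchange dimer was the part of the group closest to the threshold. RT1-DMb was at 6.89, 7.08 and 7.41 log2 units (lowest, median, highest) in A-CRF and 6.77, 6.88 and 7.01 in Control. All 8 A-CRF arrays lay above the Control median, and 4 of them (A-CRF 1, 2, 3 and 4) above every Control array. The difference was 0.24 ± 0.08 log2 units (SE, limma, unadjusted p = 0.0080, adjusted p = 0.136), with a 95% interval of 0.07 to 0.41. RT1-DMa, its partner, was at 5.79, 6.0 and 6.32 in A-CRF and 5.78, 5.81 and 5.93 in Control, with 7 of 8 A-CRF arrays above the Control median. Its difference was 0.22 ± 0.08 (SE, limma, unadjusted p = 0.014, adjusted p = 0.182). Neither passed once adjusted for all probe sets, and the lowest adjusted p that any of the 8 genes reached in the 26 alternatives was 0.082, for RT1-DMb without A-CRF 6.

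**Figure D2:**
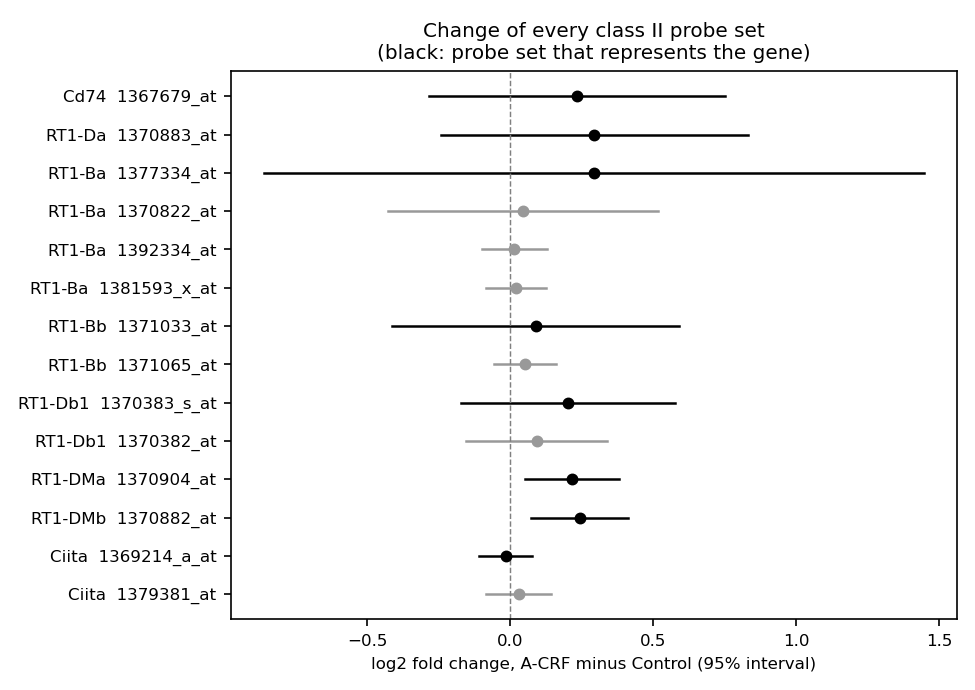
Log2 fold change, A-CRF minus Control, for each of the 14 probe sets with its 95% interval from limma. Black marks the probe set that represents the gene and grey the others. The intervals of RT1-DMa (0.05 to 0.38) and RT1-DMb (0.07 to 0.41) lie above 0 before adjustment, and that of RT1-Ba is the widest (-0.86 to 1.45).

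Ciita, the class II coactivator, had the smallest change of the representing probe sets, -0.01 ± 0.04 log2 units (SE, limma, adjusted p = 0.948, 95% interval -0.11 to 0.08). It was at 6.46, 6.67 and 6.74 (lowest, median, highest) in A-CRF and 6.60, 6.64 and 6.79 in Control. A-CRF 7 was the lowest array, at 6.46. The direction of so small a change was not stable, as it was above 0 in 6 of the 26 alternatives. The dimmer probe set of Ciita, 1379381_at, had a mean 0.48 log2 units above the lowest value of the whole table (4.82) and a difference of 0.03 ± 0.05 (adjusted p = 0.901). The probe sets of Ciita did not follow the same pattern over the arrays. After removal of the group means, the dimmer one correlated with Cd74 with r = 0.80 over the 14 arrays and the representing one with r = 0.11, given as a description.

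For RT1-Ba, the alpha chain of the B molecule, the probe sets disagreed. The representing probe set, 1377334_at, fell into separate levels: 5.12 and 5.31 on A-CRF 4 and A-CRF 6 and 5.27 and 5.21 on Control 1 and Control 2, against 6.57 to 8.48 on the other 10 arrays. Low arrays thus occurred in both groups, 2 in each. The difference between the groups was 0.29 ± 0.54 log2 units (SE, limma, adjusted p = 0.904). A second probe set of RT1-Ba, 1370822_at, was not low on those arrays, at 7.23 and 6.49 on A-CRF 4 and A-CRF 6 and 6.71 and 6.68 on Control 1 and Control 2. Its highest value over all arrays was that of A-CRF 4. The remaining 2 probe sets of RT1-Ba, 1392334_at and 1381593_x_at, varied by 0.29 and 0.28 log2 units over the A-CRF arrays and by 0.34 and 0.32 over the Control arrays. No single level of RT1-Ba can be read from these probe sets.

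RT1-Bb, the beta chain, was at 6.67, 6.96 and 8.29 log2 units (lowest, median, highest) in A-CRF and 6.60, 6.94 and 7.51 in Control, a difference of 0.09 ± 0.23 (SE, limma, adjusted p = 0.942). A-CRF 4 stood alone at 8.29, with the next A-CRF array, A-CRF 2, at 7.21. Without A-CRF 4 the difference was -0.08 (limma, adjusted p = 0.902), of opposite sign. Over the 14 arrays, with group means removed, the representing probe set of RT1-Bb correlated with 1370822_at of RT1-Ba (r = 0.85) and with 1370382_at of RT1-Db1 (r = 0.91), but in the opposite direction with 1377334_at of RT1-Ba (r = -0.58). The second probe set of RT1-Bb, 1371065_at, did not follow the first (r = -0.08) and had r = 0.67 with 1377334_at. These correlations share the same arrays and are given as a description. Whether sequence differences between animals under the probes play a part was not tested.

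**Figure D3:**
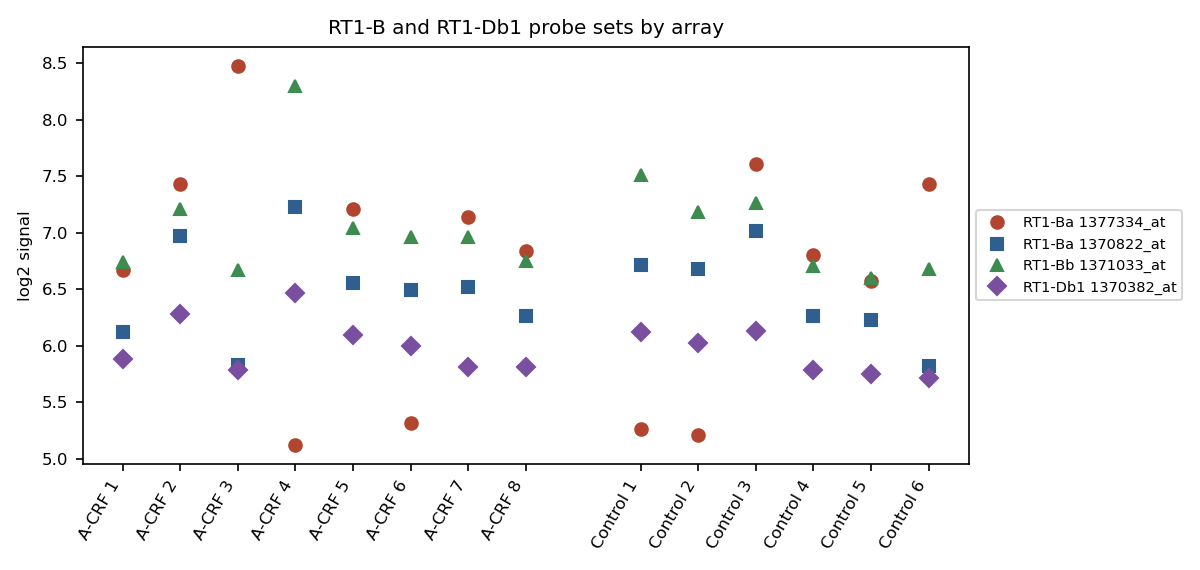
Log2 signal by array for 4 probe sets: 1377334_at and 1370822_at of RT1-Ba, 1371033_at of RT1-Bb and 1370382_at of RT1-Db1. On A-CRF 4, A-CRF 6, Control 1 and Control 2 the first lies between 5.12 and 5.31, where the second lies between 6.49 and 7.23.

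Although the groups did not differ by the test, several of the genes varied together from array to array within A-CRF. Across the 8 A-CRF arrays Cd74 correlated with RT1-Da (Pearson's r = 0.977, adjusted p = 0.0010; Spearman's rho = 0.976, adjusted p = 0.0028; exact permutation tests) and with RT1-DMa (r = 0.975, adjusted p = 0.00035; rho = 1.0, adjusted p = 0.00069; exact permutation tests). It also correlated with RT1-Db1 (r = 0.960, adjusted p = 0.0083; rho = 0.881, adjusted p = 0.034; exact permutation tests). All tested correlations of RT1-Db1 are for its representing probe set, 1370383_s_at. Over the 14 arrays, with group means removed, 1370382_at of RT1-Db1 had r = 0.50 with Cd74 and 1370383_s_at 0.96, given as a description. The relation was thus weaker for the other probe set. For RT1-DMb the exact permutation test passed for r (0.840, adjusted p = 0.044) but not for rho (0.762, adjusted p = 0.129). Correlations with RT1-Ba (r = 0.383), RT1-Bb (0.444) and Ciita (0.294) did not pass. These were 14 relations, 7 in each group, and the adjustment was over all 14.

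Leaving out A-CRF 3 and A-CRF 6, the arrays farthest from the median of Cd74, left r at 0.955 for RT1-Da, 0.948 for RT1-DMa and 0.967 for RT1-Db1 over 6 arrays, all past the threshold by exact permutation. For RT1-DMb r was then 0.710 (adjusted p = 0.327, exact permutation), no longer past the threshold over 6 arrays. For RT1-Bb r was 0.855 without them (adjusted p = 0.0097, exact permutation). In Control the relation of Cd74 with RT1-Db1 passed (r = 0.958, adjusted p = 0.029; rho = 0.829, adjusted p = 0.163; exact permutation tests, n = 6) and that with RT1-Da did not (r = 0.967, adjusted p = 0.091; rho = 0.771, adjusted p = 0.240). Without Control 3 and Control 1 the values of r were 0.540 and 0.739 over 4 arrays, given as a description.

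Control 3 stood apart from its group for several class II genes at once. Cd74 was at 9.68 on Control 3, against 8.51 to 8.84 on the other 5 Control arrays, 2.05-fold above their mean. RT1-Da was at 8.84 on Control 3, against 7.56 to 7.85, 2.20-fold above their mean. The same array was the highest of its group for RT1-Db1 (7.03 against 6.15 to 6.58), RT1-DMa (5.93 against 5.78 to 5.83) and the dimmer Ciita probe set (5.56 on Control 3 and at most 5.27 on the others). The brighter probe sets of RT1-Ba were also highest there (7.60 against 5.21 to 7.43, and 7.01 against 5.82 to 6.71), while 1392334_at and 1381593_x_at were lowest. It was not so for RT1-DMb, at 6.92 within a range of 6.77 to 7.01, or for the representing Ciita probe set, at 6.61 within 6.60 to 6.79. Nor was it so for RT1-Bb. Its representing probe set was at 7.26 on Control 3 and 7.51 on Control 1, and 1371065_at at 5.93 on Control 3 and 6.02 on Control 6. Without Control 3 the differences between A-CRF and Control were larger, 0.41 log2 units for Cd74 (limma, adjusted p = 0.489), 0.48 for RT1-Da (adjusted p = 0.375), 0.52 for RT1-Ba (adjusted p = 0.813), 0.32 for RT1-Db1 (adjusted p = 0.457) and 0.14 for RT1-Bb (adjusted p = 0.910). Leaving out a high A-CRF array lowered them, to 0.13 for Cd74 and 0.19 for RT1-Da without A-CRF 3 and to 0.15 for Cd74 without A-CRF 4. RT1-Ba moved most, to 0.05 without A-CRF 3, 0.04 without Control 2 and 0.05 without Control 1, and to 0.53 without A-CRF 4 and 0.50 without A-CRF 6. None of the 8 genes passed in any of these fits.

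None of the marker lists of cells that carry class II had its highest Control value on Control 3. The mean of 15 macrophage markers was 6.77 on Control 3, the lowest of its group, against 6.82 to 6.94 on the other Control arrays. The mean of 6 general leukocyte markers was also the lowest there (5.86 against 5.97 to 6.05). The B cell list (6 genes) was at 5.50 against 5.51 to 5.59 and the T cell list (9 genes) at 5.51 against 5.53 to 5.57. The dendritic cell list (7 genes) was at 5.77 against 5.75 to 5.77. Clear of the floor, by a Control mean more than 1 unit over the table's lowest value, were 14 of 15 macrophage, 4 of 6 leukocyte, 3 of 7 dendritic cell, 0 of 6 B cell and 2 of 9 T cell markers, so B cells could hardly be read from these arrays. The GAPDH difference of Control 3 was 0.50, among the low ones. The part of these values in the high Cd74 and RT1-Da of this array was not tested.

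In A-CRF the macrophage markers were higher: 11 of 15 passed limma, none of them lower, with a median change of 0.42 log2 units (2.05% of all probe sets passed). The list mean was 7.14 to 7.57 in A-CRF and 6.77 to 6.94 in Control. The complement gene C1qa rose by 0.65 ± 0.09 (SE, adjusted p = 0.0039), and passed in each fit without 1 array. Less stable were Lyz2 (0.76 ± 0.15, limma, adjusted p = 0.023), Mpeg1 (0.64 ± 0.13, adjusted p = 0.023) and Fcer1g (0.54 ± 0.12, adjusted p = 0.029). They passed in 12, 11 and 8 of the 14 fits without 1 array. Without Control 2, Control 3 or Control 5 the list held 7 genes past the threshold. Of the general leukocyte markers 3 of 6 passed, all higher, among them Ptprc, the leukocyte common antigen (0.31 ± 0.06, adjusted p = 0.021), whose change was 0.19 with the mean of its probe sets. The others were Lcp1 (0.45 ± 0.09, limma, adjusted p = 0.026) and Cd53 (0.37 ± 0.08, adjusted p = 0.024). Ptprc passed in each fit without 1 array, and Lcp1 and Cd53 each in 10 of the 14. The leukocyte list held 5 genes past the threshold without A-CRF 6 and 1 without Control 2, Control 3 or Control 5. Whether the class II genes differ in their change from these markers or from the protease genes described below was not tested, nor was the part of the markers in the values of RT1-DMa and RT1-DMb.

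**Figure D4:**
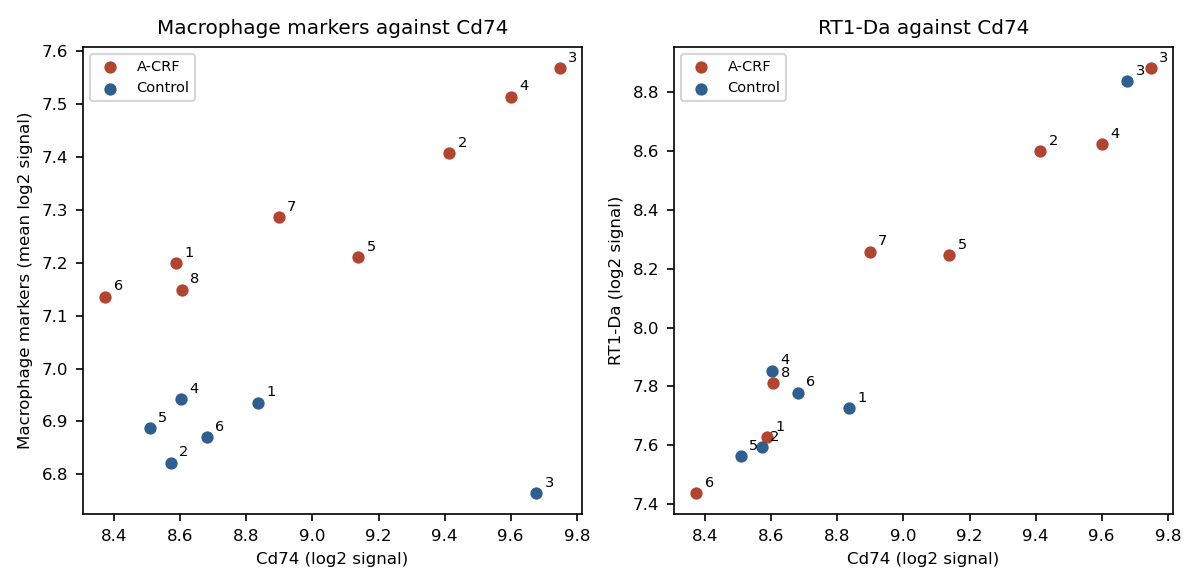
Mean log2 signal of 15 macrophage markers (left) and log2 signal of RT1-Da (right) against Cd74, 1 point per array, numbered within its group, A-CRF in red and Control in blue. Control 3 has the lowest macrophage mean (6.77) with a Cd74 value of 9.68, and in the right panel it lies beside A-CRF 3.

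Within A-CRF, Cd74 followed the macrophage mean. Across the 8 arrays r was 0.941 (adjusted p = 0.0021) and rho 0.952 (adjusted p = 0.0046, exact permutation tests, adjusted over 8 relations chosen after the values were seen). The relation with the general leukocyte mean was similar (r = 0.944, adjusted p = 0.0021; rho = 0.857, adjusted p = 0.029; exact permutation tests). The relation with the dendritic cell mean passed for r alone (r = 0.889, adjusted p = 0.014; rho = 0.714, adjusted p = 0.115; exact permutation tests). Without A-CRF 3 and A-CRF 6 the values of r were 0.900, 0.882 and 0.868, none past the threshold over the remaining 6 arrays (adjusted p = 0.067, 0.078 and 0.078, exact permutation). In Control r was -0.659 for the macrophage mean (adjusted p = 0.222), -0.736 for leukocytes (adjusted p = 0.222) and 0.317 for dendritic cells (adjusted p = 0.740; exact permutation tests, n = 6). With Control 3 and Control 1 left out, r over 4 arrays was 0.044 for the macrophage mean, 0.992 for leukocytes (adjusted p = 0.078, exact permutation) and -0.084 for dendritic cells. The Control values thus turned or vanished without those arrays and give no direction.

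Of 12 genes listed under endosomal proteolysis and class II peptide loading, 7 rose and none fell, with a median of 0.28 log2 units. Over all probe sets 1.26% were higher by the same test. The 7 were not all proteases or loading genes. They included the cathepsin inhibitor Cst3 (0.28 ± 0.06, SE, limma, adjusted p = 0.036) and the ubiquitin ligase Marchf1 (0.25 ± 0.03, adjusted p = 0.0034). By the measure used above 11 of the 12 genes were clear of the floor, all but Marchf1 (Control mean 5.24). With dim probe sets left out 6 genes of the list rose. Ctss, cathepsin S, which cuts the invariant chain, averaged 8.58 ± 0.22 in A-CRF and 7.93 ± 0.11 in Control (SD over 8 and 6 arrays), a rise of 0.65 ± 0.09 (SE, limma, adjusted p = 0.0046). Ifi30, a lysosomal thiol reductase that unfolds antigens, rose by 0.45 ± 0.07 (adjusted p = 0.0051) and Ctsh, cathepsin H, by 0.50 ± 0.10 (adjusted p = 0.020). Ctss, Ifi30 and Ctsh passed in each fit without 1 array. Ctsb, cathepsin B, rose by 0.30 ± 0.07 (adjusted p = 0.038), a call lost without A-CRF 3, A-CRF 5 or any Control array but Control 3 (highest adjusted p = 0.087), with quantile normalization (adjusted p = 0.079) and without the 3 arrays of large GAPDH difference (adjusted p = 0.059). The list held 4 genes past the threshold without A-CRF 5 or Control 2. Across the A-CRF arrays Cd74 correlated with the mean of this list (r = 0.945, adjusted p = 0.00060; rho = 0.976, adjusted p = 0.0032; exact permutation tests), also without A-CRF 3 and A-CRF 6 (r = 0.952, adjusted p = 0.011, exact permutation). In Control r was -0.128 (adjusted p = 0.788, exact permutation, n = 6). On Control 3 the list mean was 8.03, within the 7.97 to 8.07 of the other Control arrays.

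Upstream of class II no gene passed. Of 15 transcription factors and interferon gamma signalling genes 0 passed limma, with a median of -0.03 log2 units. The largest changes were 0.32 ± 0.09 for Ifngr1, a chain of the interferon gamma receptor (SE, adjusted p = 0.083), and -0.20 ± 0.06 for Nfyb, a subunit of NF-Y (adjusted p = 0.125). Ifngr1 passed without A-CRF 1 (adjusted p = 0.045) and Nfyb without A-CRF 7 (adjusted p = 0.046). Of 10 interferon gamma targets 0 passed (median 0.0067), with Icam1, a leukocyte adhesion molecule, at 0.27 ± 0.11 and Gbp4, a guanylate-binding protein, at 0.05 ± 0.02. Nor did any of 8 costimulation and checkpoint ligands (median 0.05), with Icoslg at 0.19 ± 0.09 and Cd48 at 0.15 ± 0.12. Over all probe sets 2.05% passed, so a count of 0 in lists this short is near that share. By the measure used above, 12 of the 15, 5 of the 10 and 1 of the 8 genes were clear of the floor. The interferon gamma targets could therefore be read only in part, and the costimulation and checkpoint ligands hardly at all. Cd48 passed without A-CRF 4 (adjusted p = 0.042) and without the 3 arrays of large GAPDH difference (adjusted p = 0.021).

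In the class I pathway, which presents peptides from the cytosol, 2 of 21 genes rose (1.26% of all probe sets), none fell and the median was 0.0090 log2 units. B2m, the light chain of class I molecules, averaged 11.47 ± 0.13 in A-CRF and 11.11 ± 0.06 in Control (SD over 8 and 6 arrays), a rise of 0.36 ± 0.06 (SE, limma, adjusted p = 0.0076). Pdia3, a chaperone of the peptide loading complex, rose by 0.21 ± 0.04 (adjusted p = 0.015). Both passed in each fit without 1 array. Pdia3 did not pass with trended and robust eBayes (adjusted p = 0.057) or the exact rank-sum test (adjusted p = 0.087), and its change was 0.12 with the mean of its probe sets (limma, adjusted p = 0.0498). Of the dendritic cell markers 1 of 7 rose, the lectin Clec10a by 0.41 ± 0.08 (adjusted p = 0.021), a call lost without Control 5 (adjusted p = 0.053), while none of the 6 B cell genes and none of the 9 T cell genes passed limma.

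The genes most alike in pattern to the class II genes were sought among 9370 genes in the brighter part of the table (mean over that of the median probe set). The measure was Pearson's r over 14 arrays with the mean of the 8 representing probe sets, after removal of the group means, and it is a description without a test. The probe sets were not scaled, so 1377334_at of RT1-Ba weighed most in this mean. It had the largest SD of the 8 (1.10 in A-CRF and 1.04 in Control), and no single level of RT1-Ba could be read. The 8 genes with the highest r were Psmb9, a subunit of the immunoproteasome encoded in the MHC (r = 0.90), the orphan receptor Gpr176 (0.88), the lysosomal membrane protein Dram1 (0.87), the macrophage glycoprotein Gpnmb (0.87), the mRNA processing factor Fip1l1 (0.87), the ribosomal protein Rpl41 (0.85), Rab3gap1 (0.85) and Eif1ad (0.85). Psmb9 was at 6.93 on Control 3 where the Control mean was 6.75 ± 0.09 (SD over 6 arrays). Its difference between A-CRF and Control was 0.05 ± 0.07 log2 units (SE, limma, adjusted p = 0.843). Dram1 was higher in A-CRF, with means of 7.21 ± 0.25 in A-CRF and 6.68 ± 0.20 in Control (SD over 8 and 6 arrays, limma, adjusted p = 0.032). So was Eif1ad, with 5.89 ± 0.05 in A-CRF and 5.78 ± 0.04 in Control (adjusted p = 0.036).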

How the data were processed

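The authors deposited 1 value per probe set and array, used here as log2 values. Per the submitters' processing notes the tool was PLIER, with no version. How background was handled, how arrays were normalized and whether an offset was added is not given in the sources used here. Log base 2 was taken from the span of the values, 4.82 to 12.64. From the 31099 rows 57 control probe sets were left out. The platform annotation gave 1 symbol for 20826 of the 31042 probe sets, several for 436 and none for 9780. All 8 members matched the RefSeq gene table (GRCr8) by Entrez identifier under the same symbol.

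Groups were taken from the treatment label. A-CRF was compared with Control in limma 3.58.1 (R 4.3.3), with lmFit and eBayes on all 14 arrays, two-sided, with Benjamini-Hochberg adjustment over all probe sets and a threshold of 0.05. The fit had 12 residual degrees of freedom. The script was tested on simulated data. Exact permutation tests were run in Python 3.11.15 with scipy 1.17.1. No sequencing depth exists for arrays, and their number limits the precision. Alternatives were other normalizations, an offset of 16, leaving out dim or several-transcript probe sets, mean of probe sets, array weights, trended robust eBayes, the GAPDH difference as covariate, exact tests and leaving out arrays. Correlations between arrays over all probe sets were 0.971 to 0.997, and no pair was identical.

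The members, the 6 gene lists and the 8 marker lists were chosen with earlier results of these data known. The list of other class II loci had 0 measured genes. Besides the members, the named genes were, per list, up to 4 past the threshold by size of change, or the 2 that changed most if none did, and the 8 genes most alike in pattern. By this rule the B cell list gave Cd22 (0.06 log2 units) and Cr2 (-0.04), and the T cell list Cd4 (0.04) and Cd2 (-0.03). The endothelial list gave Vwf (0.40) and Kdr (-0.20), and the white adipocyte list Cidec (-0.49) and Fabp4 (-0.47). None of these passed limma. Cst3 and Marchf1 were named in addition. In the lists of endothelial cells, white adipocytes and smooth muscle 0 of 6, 0 of 5 and 1 of 6 genes passed, the last being Myh11, lower in A-CRF. Its call was not stable, as it held in 4 of the 14 fits without 1 array. With probe sets of several transcripts left out Myh11 did not pass (limma, adjusted p = 0.534).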

Additional observations from a re-analysis of the deposited data

Results flagged for a closer look

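A single array lay far from the others of its group, by Dixon's criterion at the 95% level, for 6 combinations of probe set and group. Chance alone is expected to mark about 1 in 20 groups of normally distributed values, and over all probe sets 6.92% were marked in A-CRF and 7.81% in Control. Control 3 accounted for 4 of the 6, as the highest Control array: Cd74 at 9.68 (next array 8.84), RT1-Da at 8.84 (next 7.85), RT1-DMa at 5.93 (next 5.83) and the dimmer probe set of Ciita at 5.56 (next 5.27). Over all probe sets, 1.36% had Control 3 as such a highest array. In A-CRF, RT1-Bb stood at 8.29 on A-CRF 4 (next 7.21), and the representing probe set of Ciita was lowest on A-CRF 7 at 6.46 (next 6.64). A-CRF 4 was also an array with a large GAPDH 3′ minus 5′ difference (1.63), whose part in the RT1-Bb value was not tested.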

How the results depend on the processing

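The count of class II genes past the threshold was 0 in each of the 26 alternatives, and adjusted p-values of the 8 genes were 0.082 or higher in all of them. For the exact tests this 0 is no separate result, for the reasons given above. Signs turned for Ciita, at 0.0056 with array weights, 0.0074 with the mean of its probe sets and 0.029 with probe sets of several transcripts left out. Without single arrays Ciita ranged from -0.029 to 0.013. RT1-Bb ranged from -0.085 to 0.19 without single arrays. Over all probe sets the count of 636 was 1041 with the GAPDH difference as covariate, 1457 with array weights, 0 with the exact permutation test (4391 at an unadjusted p under 0.05; 429 called by the exact rank-sum test), and 307 to 979 without single arrays. The genes past the threshold in all lists together numbered 0 with the exact permutation test and 15 to 27 without single arrays. Of the 14 correlations with Cd74, 5 passed by Pearson's r, 3 by Spearman's rho (added after the data were seen) and 4 without the pairs of arrays farthest from the median. No paired analysis was possible because the titles carry no number shared between the groups. The cause of these shifts was not tested. Dim signal limits the readings, since 59.0% of probe sets averaged less than 1 log2 unit over the table's lowest value.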

Other observations

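When Cd74 alone was used as the pattern, a choice made after the values were seen, RT1-Da (r = 0.97), RT1-Db1 (0.96) and RT1-DMa (0.89) ranked 1, 2 and 6 of 9377 genes over the 14 arrays with group means removed, whereas RT1-DMb ranked 143, RT1-Bb 1018, RT1-Ba 1335 and Ciita 3790. Dram1 (0.92), Gpr176 (0.92) and Litaf (0.90), a lysosome-associated protein, ranked 3, 4 and 5. The ranks are for the representing probe sets, and the other probe set of RT1-Db1, 1370382_at, had r = 0.50 with Cd74. These ranks are a description of 14 arrays and carry no test.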
